A study of Mus musculus with 6 samples.

Results

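The genes described here are 33 named genes of the interferon response and of nucleic acid sensing, chosen by symbol for their known function, by a rule that names no measured value but was written with earlier results of these data known. Of the 33, 32 were found among the 33924 gene symbols of the count tables, and Ifi27 was not found by that symbol. They were divided by role into 8 sensors and adaptors, 5 transcription factors and 20 induced genes. The cells were E14, an embryonic stem cell line of the mouse, and their RNA was sequenced in 3 control libraries (wild type by their labels) and 3 libraries labelled Rif1-KO (called Rif1-KO-labelled here). All 6 carry the labels 2i medium and day 0. The protocol text of all 6 gives 4-hydroxytamoxifen (4-OHT) at 0.1 µM over 2 days, with 1 further day off the drug, but the column headers of the count tables read 2i for control and TAM for the others, so an effect of drug or medium and the loss of Rif1 cannot be told apart. How Rif1 was disrupted, and whether the libraries come from separate cultures or from 1 clone, is not given in the sources used here, so the p-values rest on the spread between these libraries alone, which may be technical.

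Cells detect foreign or misplaced nucleic acid with sensor proteins, which signal through adaptor proteins to transcription factors of the IRF family and so switch on interferon genes. Secreted interferon binds its receptors, and the kinases JAK1 and TYK2 then activate a complex that holds STAT2 and IRF9. This complex binds a short DNA motif, the interferon-stimulated response element, and induces a large set of antiviral genes. Mouse embryonic stem cells are known for a weak interferon response, with little interferon made after viral challenge and low levels of many induced genes.

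Total counts ran from 8383632 to 10980777 reads per library. The correlation of log2 CPM (counts scaled to library size and composition) across genes ran from 0.993 to 0.995 within groups and from 0.968 to 0.969 between them. Rif1 stood at 673, 657 and 700.1 CPM in control and at 602, 604 and 664 CPM in the Rif1-KO-labelled libraries, a count over the whole gene that cannot show a deletion of some exons. The 8 stem cell markers, Pou5f1 and Nanog among them, together gave 5735 ± 212 CPM in control against 6241 ± 185 CPM in the Rif1-KO-labelled libraries (SD, n = 3). They moved apart, with 4 higher and 1 lower by the test described next: Sox2 fell from 683 to 469 CPM, while Dppa5a rose from 804 to 1108 CPM and Tfcp2l1 from 1501 to 1875 CPM. Across the table, the quasi-likelihood test of edgeR, with adjustment by Benjamini and Hochberg, called 7251 of 14250 tested genes at an adjusted p under 0.05, which is 50.9%, with 26.1% higher and 24.8% lower in the Rif1-KO-labelled libraries. For Rif1 the log2 fold change was −0.12 ± 0.05 (SE) with an adjusted p of 0.0509, and it passed in 8 of 15 alternative analyses (adjusted p from 1.57e-05 to 0.212). Every adjusted p below comes from this fit unless another tool is named, fold changes set the Rif1-KO-labelled libraries over control, and "rose", "fell" and "passed" refer to this threshold.

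More of the tested members were lower than higher. Of the 32 found, 16 had enough reads to be tested, 1 rose (Stat2), 5 fell (Dhx58, Irf1, Mavs, Eif2ak2 and Adar) and 10 did not pass. The 6 that passed are 37.5% of the 16, against the 50.9% of all tested genes. The log2 fold change was negative for 12 and positive for 4, against 7075 and 7175 of all tested genes. Their median was −0.14, where that of all tested genes was 0.00347. None changed by 2-fold, and the median size of change was 0.19 on the log2 scale against 0.25 for all tested genes. A further 15 members lay under the filter on low counts, and Ifi44 had no read in any library. Each tested member averaged above the filter's limit of 1.09 CPM in both groups, with Dhx58 lowest at 1.29 CPM in the Rif1-KO-labelled libraries, so none was tested through 1 group alone. In bulk RNA, fewer cells that express a gene and less of its RNA per cell cannot be told apart.

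**Figure D1:**
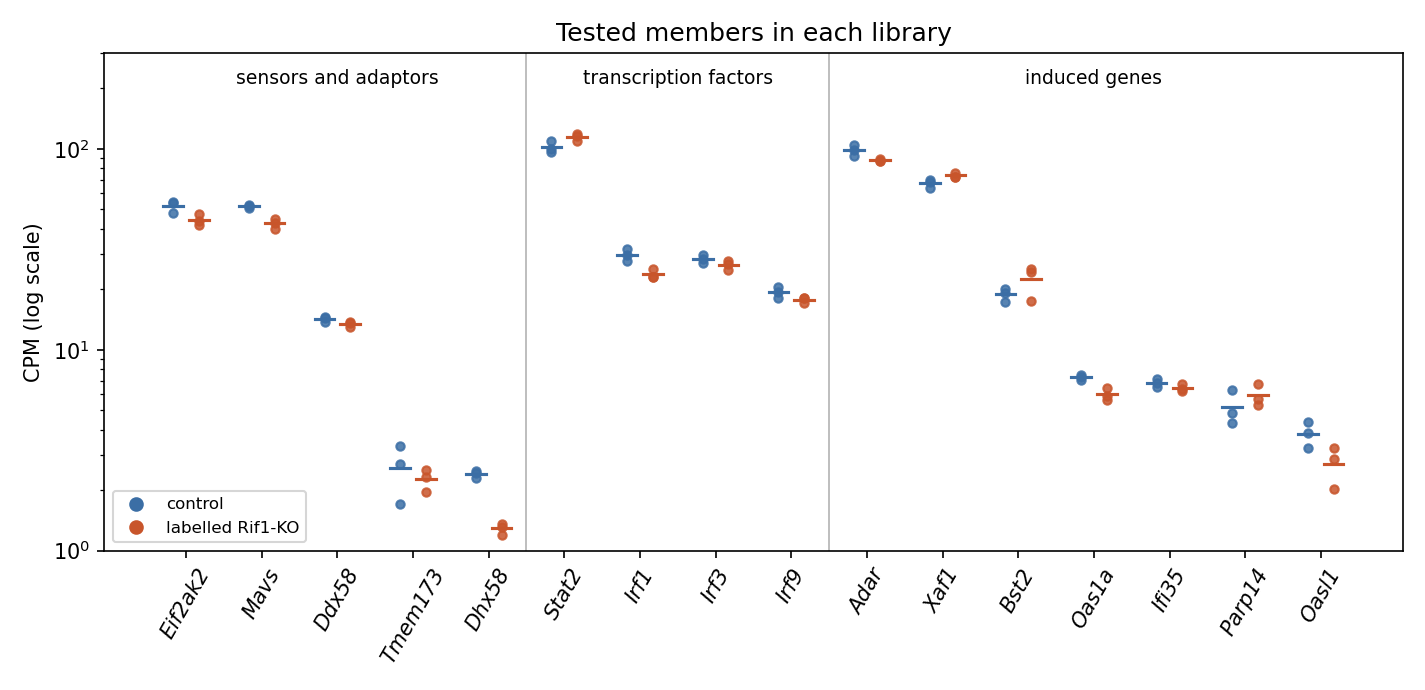
CPM (log scale) of the 16 tested members in each library, grouped by role, with points for single libraries and bars for group means. Control and Rif1-KO values lie close together for most members, and Dhx58 has the widest relative gap, at 2.41 against 1.29 CPM.

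Among the 8 sensors and adaptors, 3 fell, none rose, 2 did not pass and 3 were under the filter. That is 3 of the 5 tested, a share near the 50.9% of all tested genes called in either direction. All 3 were lower, against 24.8% of all tested genes. All 5 tested genes of this role had a negative log2 fold change, with a median of −0.23. Summed over the 8, expression was 121, 123 and 129 CPM in the control libraries and 108, 100.5 and 108 CPM in the Rif1-KO-labelled libraries, so the groups did not overlap. The log2 ratio of the group means was −0.24. Eif2ak2 and Mavs made up most of that sum.

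Mavs encodes the mitochondrial adaptor that relays the signal of the RNA helicases RIG-I and MDA5. It stood at 52.5, 50.5 and 52.2 CPM in control and at 44.8, 40.0 and 43.0 CPM in the Rif1-KO-labelled libraries. Every control library lay above every library labelled Rif1-KO. Mavs fell by 17.7%, a log2 fold change of −0.28 ± 0.06 (SE) with an adjusted p of 0.00121, and it passed under all 15 alternative analyses (adjusted p from 0.000447 to 0.0118). Eif2ak2 encodes PKR, a kinase that binds double-stranded RNA and slows translation. It read 47.9, 53.5 and 54.1 CPM in control and 43.7, 41.8 and 47.2 CPM in the Rif1-KO-labelled libraries, without overlap, although control replicate 1 and Rif1-KO replicate 3 came close. Its log2 fold change was −0.23 ± 0.07 with an adjusted p of 0.00961. It lost its call when control replicate 3 (adjusted p = 0.0573) or Rif1-KO replicate 2 (0.0560) was left out, within a range from 0.000873 to 0.0573 over 15 alternatives.

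Dhx58 encodes LGP2, a relative of RIG-I and MDA5 that lacks their signalling domain and tunes their activity. Its level was low, at 2.49, 2.31 and 2.43 CPM in control and 1.36, 1.31 and 1.20 CPM in the Rif1-KO-labelled libraries, which is 64 reads against 39. The 2 groups were well separated, and the gene had the largest change of the tested members. Its log2 fold change was −0.89 ± 0.26, a fall by 46.1%, with an adjusted p of 0.00720. With DESeq2 the adjusted p was 0.0573, the highest of 15 alternatives, of which 14 passed.

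Ddx58, which encodes RIG-I, the helicase that senses short double-stranded RNA, did not pass. Its libraries read 14.4, 13.7 and 14.6 CPM in control and 13.6, 13.7 and 13.01 CPM in the Rif1-KO-labelled libraries, with overlap (log2 fold change −0.08 ± 0.10, adjusted p = 0.524). Tmem173, which encodes STING, the adaptor of cytosolic DNA sensing, stood at 2.70, 1.70 and 3.32 CPM in control and 2.53, 2.32 and 1.97 CPM in the Rif1-KO-labelled libraries (log2 fold change −0.18 ± 0.26, adjusted p = 0.580). The control libraries span the whole range of the others, so at this depth a change of this size was not detectable.

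The other 3 sensors were read too rarely to be tested. Zbp1, a sensor of Z-form nucleic acid, had 9, 12 and 17 reads in control and 8, 9 and 8 in the Rif1-KO-labelled libraries, a ratio per library size of 0.579 with an exact 95% interval from 0.335 to 0.985. Ifih1, which encodes MDA5, a sensor of long double-stranded RNA, had 6 reads over the control group and 14 over the Rif1-KO-labelled libraries, a ratio per library size of 2.06 with an exact 95% interval from 0.742 to 6.53. Tlr3, a sensor of double-stranded RNA in endosomes, had 6 and 8. With the filter removed, the adjusted p was 0.111 for Zbp1, 0.352 for Ifih1 and 0.892 for Tlr3.

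**Figure D2:**
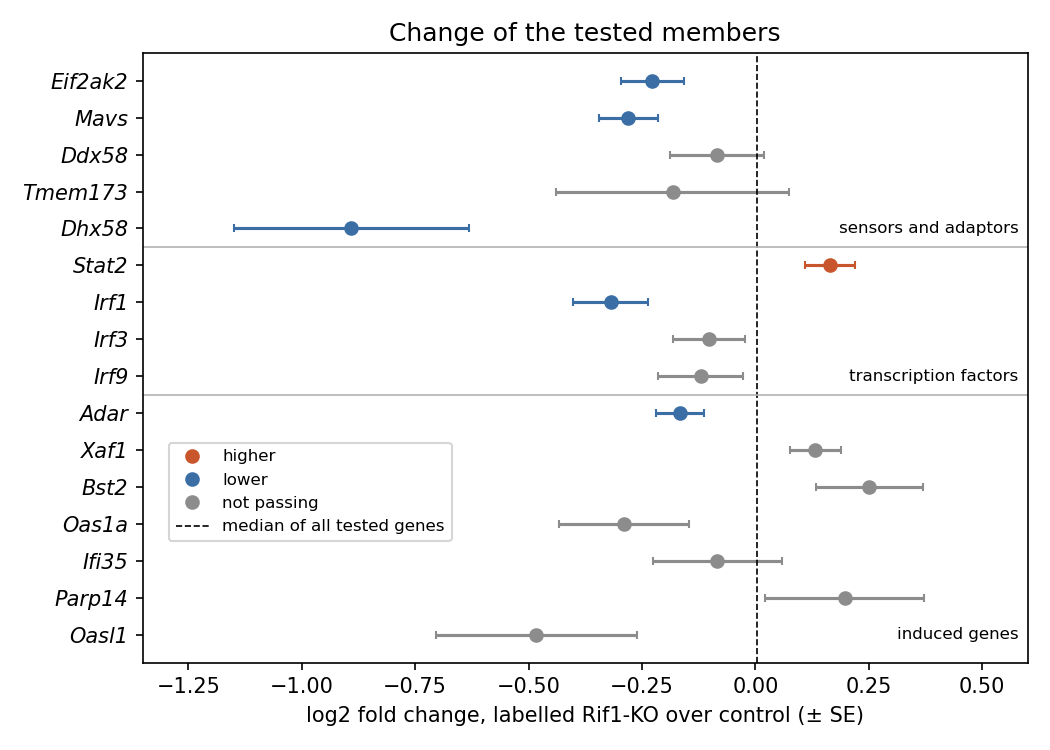
Log2 fold change (libraries labelled Rif1-KO over control) with its standard error for the 16 tested members, grouped by role, with the median of all tested genes as a dashed line. The 5 sensors and adaptors all lie below 0, 3 of them passing, while the induced genes lie on both sides and Adar alone among them passed.

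Among the 5 transcription factors, 1 rose, 1 fell, 2 did not pass and 1 was under the filter. The share called among the 4 tested is close to the 50.9% of all tested genes, where 26.1% were higher and 24.8% lower. The summed level of the 5 transcription factors was 180 ± 6.77 CPM in control against 183 ± 6.22 CPM in the Rif1-KO-labelled libraries (SD, n = 3). Stat2, the subunit of the interferon-activated complex that carries its main activation domain, stood at 99.7, 109.5 and 96.7 CPM in control and at 108.8, 116 and 118 CPM in the Rif1-KO-labelled libraries. Control replicate 2 lay above the lowest of the other group, so the groups overlap. The log2 fold change was 0.16 ± 0.06, a rise of 12.1% with an adjusted p of 0.0172. Stat2 did not pass with DESeq2 (adjusted p = 0.0572), without control replicate 3 (0.126) or without Rif1-KO replicate 2 (0.0634), within a range from 0.00334 to 0.126 over 15 alternatives.

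Irf1, an early transcription factor of the interferon response that interferon gamma strongly induces, read 27.7, 29.5 and 31.6 CPM in control and 23.1, 22.9 and 25.3 CPM in the Rif1-KO-labelled libraries. The groups did not overlap. The log2 fold change was −0.32 ± 0.08, a fall by 19.8% with an adjusted p of 0.00322, and the gene passed under all 15 alternatives (adjusted p from 0.00153 to 0.0270). Irf3, the factor that sensors activate first, read 29.7, 28.4 and 27.1 CPM in control and 25.03, 27.8 and 26.8 CPM in the Rif1-KO-labelled libraries (log2 fold change −0.10 ± 0.08, adjusted p = 0.302). Irf9, the DNA-binding partner of STAT2, read 20.4, 19.4 and 18.03 CPM against 18.1, 18.1 and 17.1 CPM (log2 fold change −0.12 ± 0.09, adjusted p = 0.30). Neither passed under any of 15 alternatives, and in both genes the groups overlap. Irf7, which amplifies the response and is itself induced by interferon, had 13 reads in control and 14 in the Rif1-KO-labelled libraries.

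Of the 20 induced genes, 7 were tested, with 1 that fell, none that rose and 6 that did not pass. That is 14.3% of the 7 called, against 50.9% of all tested genes, where 24.8% were lower and 26.1% higher. A further 11 lay under the filter, Ifi44 was at 0 and Ifi27 was not found. The 19 found together gave 214, 207 and 211 CPM in control against 209.7, 208 and 206 CPM in the Rif1-KO-labelled libraries, a log2 ratio of −0.02. The groups overlap. Adar and Xaf1 hold most of that sum. The log2 ratio was 0.10 with Adar counted among the sensors instead.

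Adar encodes ADAR1, an enzyme that edits adenosine in double-stranded RNA and so keeps the cell's own RNA from being sensed. It stood at 104, 92.2 and 98.7 CPM in control and at 88.7, 87.2 and 87.1 CPM in the Rif1-KO-labelled libraries, without overlap. The log2 fold change was −0.17 ± 0.05, a fall by 10.9% with an adjusted p of 0.0139, and the call was lost without control replicate 1 (adjusted p = 0.0742), within a range from 0.00423 to 0.0742 over 15 alternatives. In the annotation, 16.8% of its exon length overlaps Chrnb2 on the opposite strand, and the strand setting of the counting is not given in the sources used here.

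Bst2 encodes tetherin, a membrane protein that holds budding virus particles at the cell surface. It read 20.1, 17.3 and 19.2 CPM in control and 24.4, 25.4 and 17.4 CPM in the Rif1-KO-labelled libraries. Rif1-KO replicates 1 and 2 lay above every control library and replicate 3 lay among them. The log2 fold change of 0.25 ± 0.12 did not pass (adjusted p = 0.0836). It was 0.39 with an adjusted p of 0.00176 without Rif1-KO replicate 3, and it passed also with no filter on low counts (0.0398) and with an offset for GC content and length (0.0235), within a range from 0.00176 to 0.342 over 15 alternatives. Xaf1, an induced gene that promotes cell death, read 64.1, 69.7 and 68.1 CPM in control and 72.5, 72.6 and 76.2 CPM in the Rif1-KO-labelled libraries. Here the groups did not overlap, yet the log2 fold change of 0.13 ± 0.06 missed the threshold (adjusted p = 0.0564). It passed with library totals only (adjusted p = 0.0312) and without control replicate 2 (0.0497), within a range from 0.0312 to 0.209 over 15 alternatives.

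The oligoadenylate synthetase family senses double-stranded RNA and makes a short RNA messenger of the antiviral response. Oas1a, a synthetase, read 7.35, 7.05 and 7.52 CPM in control and 5.60, 6.46 and 5.91 CPM in the Rif1-KO-labelled libraries, without overlap (log2 fold change −0.29 ± 0.14, adjusted p = 0.100). It shares 57.6% of its 50-base stretches with other transcripts, chiefly Oas1g, so its count is uncertain. Oasl1, a relative without that enzyme activity, read 3.24, 4.37 and 3.87 CPM against 3.25, 2.02 and 2.84 CPM (log2 fold change −0.48 ± 0.22, adjusted p = 0.0754). Rif1-KO replicate 1 lies just above the lowest control library, and the gene passed when replicate 1 of control (adjusted p = 0.0480) or of Rif1-KO (0.0449) was left out, within a range from 0.0449 to 0.283 over 15 alternatives. Over all 16 tested members, the groups' libraries did not overlap at 7, against 57.2% of all tested genes. The 7 are Dhx58, Eif2ak2, Mavs, Irf1, Adar, Oas1a and Xaf1.

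Ifi35, an induced gene of the antiviral response, read 7.14, 6.56 and 6.86 CPM in control and 6.78, 6.26 and 6.34 CPM in the Rif1-KO-labelled libraries (log2 fold change −0.08 ± 0.14, adjusted p = 0.660). Parp14, an ADP-ribosyltransferase, read 4.87, 6.32 and 4.31 CPM against 5.33, 5.66 and 6.78 CPM (log2 fold change 0.20 ± 0.18, adjusted p = 0.367). Both overlap between the groups, and neither passed under any of 15 alternatives.

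The genes most used to read an interferon response were almost unread in both groups. Isg15, a ubiquitin-like modifier, had 3, 0 and 1 reads in the control libraries and 0, 2 and 0 in those labelled Rif1-KO. Usp18, which removes ISG15 from proteins, had 1 read in all, in control. Ifit1, which binds RNA with foreign ends, had 1 read, in a library labelled Rif1-KO, and Ifit3, its partner, had 1 in each group. Ifit3 shares 51.2% of its 50-base stretches with Ifit3b, so its count is uncertain. Rtp4 also had 1 in each group and Mx2 had 2, both in libraries labelled Rif1-KO. Ifi44 had none, and 0 reads allow up to 3, which is 0.113 CPM over the control group and 0.0996 CPM over the Rif1-KO-labelled libraries. Such limits and the intervals on count ratios cover counting error only, as these reads carry no molecular identifiers and are not independent molecules.

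A few induced genes stood slightly above this level. Ifit2 had 9, 8 and 7 reads in control and 8, 6 and 9 in the Rif1-KO-labelled libraries, and Rsad2, which encodes the antiviral enzyme viperin, had 7, 8 and 4 against 12, 3 and 5. Mx1, a GTPase that blocks influenza virus, had 5, 3 and 4 reads against 8, 9 and 8, a ratio per library size of 1.83 (exact 95% interval 0.888 to 4.01). Its libraries did not overlap between the groups, but with the filter removed its adjusted p was 0.232. In CPM, Zbp1 and Oasl2 also did not overlap, both lower in the Rif1-KO-labelled libraries. With the filter removed, their adjusted p was 0.111 and 0.199. Oasl2 had 12 reads in control, 8 of them in replicate 2, and 5 in the Rif1-KO-labelled libraries. Cxcl10, a chemokine induced by interferon, had 5 and 8. All 16 members that were not tested together gave 5.37 ± 0.445 CPM in control against 4.93 ± 0.546 CPM in the Rif1-KO-labelled libraries (SD, n = 3), which is 142 and 149 reads, and the groups overlap. With the filter removed, none of the 15 with a read passed, and Zbp1 alone of them had an unadjusted p under 0.05, at 0.0404.

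**Figure D3:**
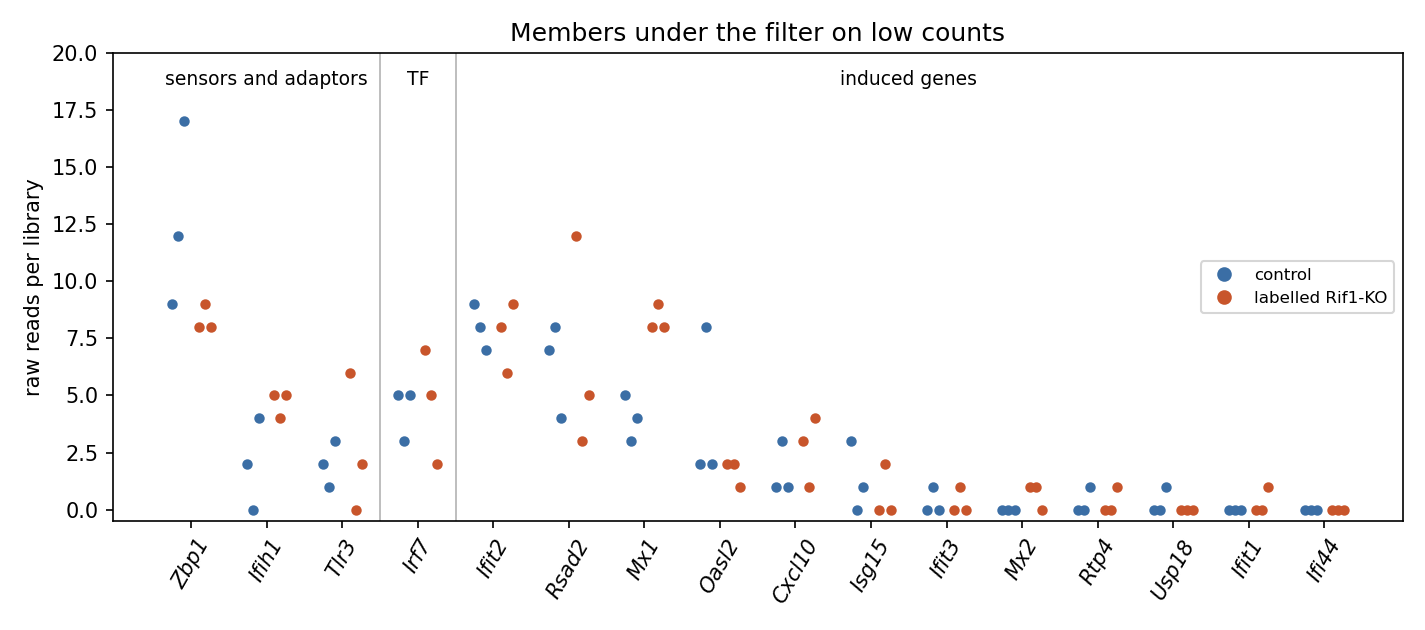
Raw reads in each library for the 16 members under the filter on low counts, grouped by role (TF, transcription factor), with control in blue and the Rif1-KO-labelled libraries in orange. The highest value is 17 reads, for Zbp1 in a control library, and Isg15, Usp18, Ifit1, Ifit3, Rtp4, Mx2 and Ifi44 have at most 3 reads in any library.

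Ifi27, a small induced membrane protein of mitochondria, is the current RefSeq name of the table's Ifi27l1, but the same symbol is also an older name of Ifi27l2a, so neither was counted as a member. Ifi27l1 had 8, 10 and 11 reads in control and 37, 24 and 13 in the Rif1-KO-labelled libraries, or 0.865, 1.21 and 1.22 CPM against 3.34, 2.42 and 1.42 CPM. The groups did not overlap, with wide spread in the Rif1-KO-labelled libraries. With control replicate 1 below the 1.09 CPM that the filter asks for, the gene had enough libraries for the filter only through the Rif1-KO-labelled group, and its values are given as a description with no test. Ifi27l2a had 2 reads in each group.

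Levels of different genes were compared per length of their exons. In control, Bst2 had the highest level of the members at 20.9 ± 1.62 CPM per kb (SD, n = 3), followed by Stat2 at 17.2 ± 1.13, Mavs at 15.5 ± 0.321, Xaf1 at 14.4 ± 0.618, Adar at 12.1 ± 0.728 and Eif2ak2 at 10.1 ± 0.667 CPM per kb. Irf3 and Irf1 followed at 8.26 ± 0.382 and 7.45 ± 0.498 CPM per kb. These 8 exceed the median of all tested genes, 6.28 CPM per kb. By role, the median level in control was 0.838 CPM per kb for the 8 sensors and adaptors, 7.45 for the 5 transcription factors and 0.167 for the 19 induced genes. The induced genes span the widest range, from 0 to 20.9 CPM per kb. In the Rif1-KO-labelled libraries the 3 medians were 0.612, 5.98 and 0.149 CPM per kb.

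Promoters were searched for the interferon-stimulated response element, searched as GAAA, any 2 bases and GAAA, and for the gamma-activated site of the interferon gamma response, TTCNNNGAA, on both strands. The windows, from RefSeq on GRCm38.p6, hold 250 bases before and 50 after each transcription start and were given for 24 of the 33 members. At least 1 response element lay in the windows of 11 of the 24 (45.8%), against 3.99% of 27025 genes with a window. The gamma-activated site lay in 7 of 24 (29.2%), against 9.55%. The element is printed for 4 promoters, since the first pair (Isg15 and Ifit1) was almost unread and the second pair (Bst2 and Stat2) had the highest levels per length among the members. Each stretch of 100 bases is given 5′ to 3′ on the gene's strand, with matches to the response element on either strand in capitals. Isg15 has 3 matches that overlap each other and Bst2 has 2, and the first match of Bst2 overlaps a gamma-activated site. The stretches lie at chr4:156200836-156200935 on the minus strand for Isg15 (117 to 18 bases before the start), at chr19:34640749-34640848 on the plus strand for Ifit1 (140 to 41), at chr8:71537545-71537644 on the minus strand for Bst2 (172 to 73) and at chr10:128270248-128270347 on the plus strand for Stat2 (250 to 151), all on GRCm38.p6, a later build than the mm9 of the counts.
Isg15: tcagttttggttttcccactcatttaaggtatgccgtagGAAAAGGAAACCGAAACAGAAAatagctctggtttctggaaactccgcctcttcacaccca
Ifit1: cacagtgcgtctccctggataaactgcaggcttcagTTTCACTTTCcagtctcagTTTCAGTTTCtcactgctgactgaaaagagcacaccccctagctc
Bst2: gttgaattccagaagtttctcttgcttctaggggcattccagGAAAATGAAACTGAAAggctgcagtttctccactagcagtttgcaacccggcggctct
Stat2: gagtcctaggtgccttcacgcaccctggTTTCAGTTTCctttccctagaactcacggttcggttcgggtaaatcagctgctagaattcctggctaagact

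A match to the response element did not go with 1 level or 1 direction among the members. The 11 members with a match ranged in control from 0 to 20.9 CPM per kb with a median of 0.192, and the 13 without ranged from 0 to 15.5 with a median of 3.58. Of the 11, 5 were tested: Stat2 rose, Eif2ak2 fell, and Ddx58, Oas1a and Bst2 did not pass. Of the 13, 8 were tested: Mavs, Irf1 and Adar fell and 5 did not pass. The median log2 fold change was −0.08 with a match and −0.14 without. No match says only that these letters are not in this window.

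The rest of the pathway was described with 6 lists of 109 genes, all found in the table. Of these, 76 were tested, 26 rose, 17 fell and 33 did not pass. That is 56.6% called, against 50.9% of all tested genes, with a median log2 fold change of −0.03. The interferon genes themselves were almost unread. Of 12 ligand genes, among them Ifnb1, 10 had no read in any library, Ifnk had 5 reads in control and 13 in the Rif1-KO-labelled libraries, and Ifnl2 had 1 read. Ifna1, Ifna5, Ifna6 and Ifnz share from 52.2% to 76.9% of their 50-base stretches with other transcripts, so their zeros are uncertain.

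All 10 receptor and JAK-STAT genes were tested, 5 rose and none fell, with a median log2 fold change of 0.22. The share called is close to that of all tested genes, 50.9% in either direction. All 5 called were higher, against 26.1% of all tested genes. Jak1, the kinase shared by the interferon receptors, read 83.0, 84.7 and 79.8 CPM in control and 120, 121 and 134 CPM in the Rif1-KO-labelled libraries, without overlap (log2 fold change 0.59 ± 0.05, adjusted p = 2.57e-08). Jak2, a kinase of the interferon gamma receptor, rose by 0.30 ± 0.08 on the log2 scale and Ifnlr1, the receptor of interferon lambda, by 0.30 ± 0.09. Ifnar1 and Ifnar2, named after their values were seen, did not pass. Ifnar1 passed in 2 of 15 alternatives (adjusted p from 0.0318 to 0.211) and Ifnar2 in 5 (0.00923 to 0.315), among them the replicate block (0.0262). The receptor subunit Ifnar1 stood at 50.1 and 55.1 CPM and its partner Ifnar2 at 23.2 and 19.3 CPM.

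Of 19 tested genes among other sensors, adaptors and kinases, 7 rose and 3 fell, where 26.1% of all tested genes were higher and 24.8% lower. Tank and Azi2, scaffolds of the kinase TBK1, rose by 0.58 ± 0.09 and 0.36 ± 0.06 on the log2 scale, and Chuk, an IκB kinase subunit, rose by 0.27 ± 0.05. The DNA sensor cGAS, named after its values were seen and listed in the table as E330016A19Rik, stood at 6.30 CPM in control and 4.93 CPM in the Rif1-KO-labelled libraries (log2 fold change −0.35 ± 0.16, adjusted p = 0.0687, and from 0.0407 to 0.215 over 15 alternatives, of which 1 passed). Among 16 tested negative regulators and enzymes that remove nucleic acid, 3 rose and 3 fell, against the same 26.1% and 24.8% of all tested genes. Rnaseh2a and Rnaseh2b, subunits of the enzyme that degrades RNA paired with DNA, fell by 0.53 ± 0.08 and 0.29 ± 0.05. Nlrx1, which restrains signalling through MAVS, rose from 4.05 ± 1.29 to 8.50 ± 0.293 CPM (SD, n = 3; adjusted p = 5.5e-05). Trex1 is listed at 0 in every library, but all of its exon length overlaps Atrip on the same strand in the annotation, so that value is uncertain.

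Of 22 tested genes among other induced genes, 5 rose and 10 fell, with a median log2 fold change of −0.21, where 26.1% of all tested genes were higher and 24.8% lower. Ifitm1 and Ifitm2, membrane proteins that block viral entry, fell from 140 ± 5.08 to 100.5 ± 4.61 CPM and from 302 ± 38.7 to 180 ± 2.57 CPM, with log2 fold changes of −0.47 ± 0.05 and −0.75 ± 0.07 (adjusted p = 2.42e-07 and 1.18e-08). Ifitm2 shares 48.5% of its 50-base stretches with other transcripts. Znfx1, a helicase that senses viral RNA, fell by 0.40 ± 0.07. A further 12 genes lay under the filter and 3 were at 0.

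Of the genes of class I antigen presentation, 9 had enough reads. Among them 6 rose and 1 fell, where 26.1% of all tested genes were higher and 24.8% lower, and the median log2 fold change was 0.40. B2m, the light chain shared by class I molecules, read 35.1, 41.6 and 39.2 CPM in control and 76.2, 76.5 and 81.3 CPM in the Rif1-KO-labelled libraries, with a wide gap between the groups. Its log2 fold change was 1.02 ± 0.07 (adjusted p = 1.71e-10). H2-D1, a heavy chain, rose by 0.72 ± 0.10 and Tapbp, which loads peptide, by 0.40 ± 0.07 on the log2 scale. Tapbp shares 23.2% of its 50-base stretches with other transcripts. Psmb10, an inducible proteasome subunit and the gene of this list that fell, went from 6.48 to 2.90 CPM.

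**Figure D4:**
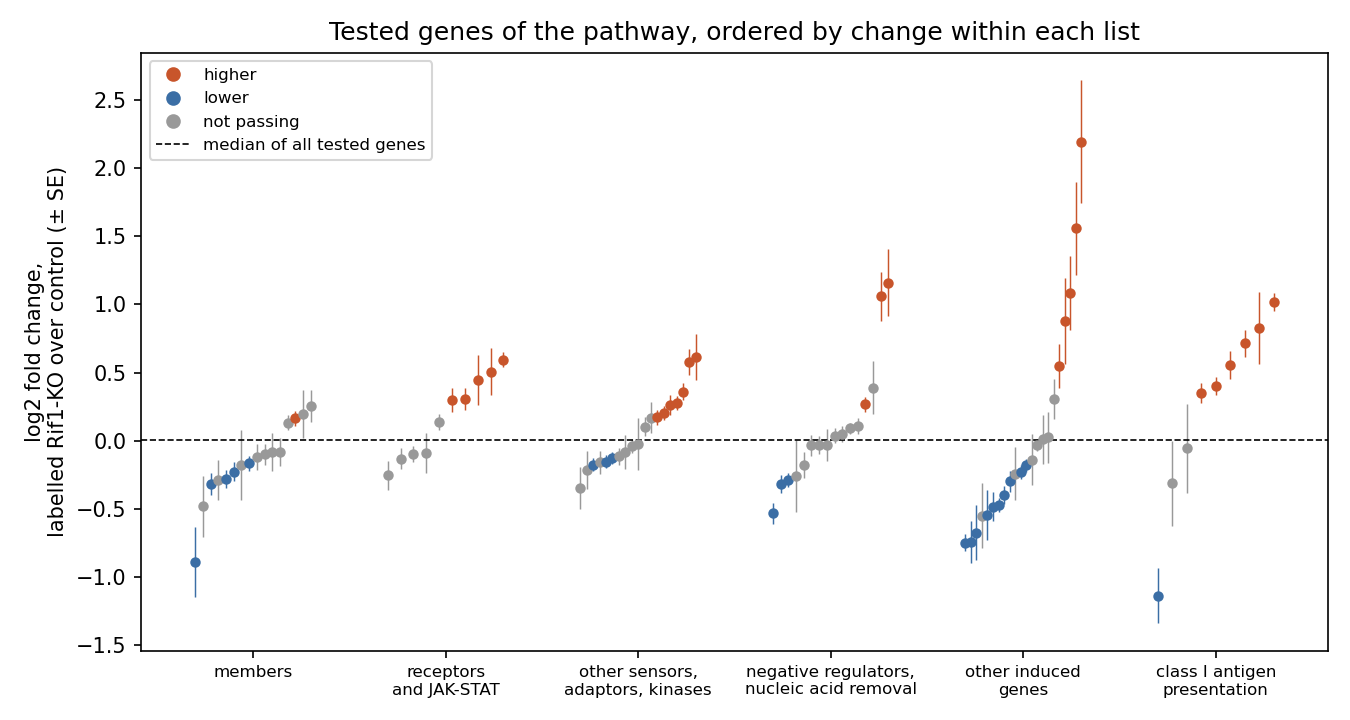
Log2 fold change (libraries labelled Rif1-KO over control) with its standard error for every tested gene of the members and of 5 further lists, ordered by value within each list, with the median of all tested genes dashed. The 16 members stay within 1 log2 unit of 0, 5 of 10 receptor and JAK-STAT genes and 6 of 9 class I genes are higher, and 10 of 22 other induced genes are lower. The ligands had no tested gene.

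Summed markers of endoderm, trophectoderm and immune cells also differed between the groups, while the fibroblast sums overlapped. For the calls given here, 26.1% of all tested genes were higher and 24.8% lower. The 8 endoderm markers summed to between 279 and 297 CPM in control and between 537 and 558 CPM in the Rif1-KO-labelled libraries, most of it Sparc, with 5 of 6 tested higher (Sox17 tested only through the Rif1-KO-labelled libraries) and Foxa2 at 6 and 13 reads. Trophectoderm markers summed to between 143 and 148 CPM and between 212 and 227 CPM, with Krt8 and Krt18 higher, Tfap2c and Ascl2 lower and Cdx2 at 0. Fibroblast markers summed to between 20.7 and 30.0 CPM and between 20.5 and 23.4 CPM, with Thy1 lower in the Rif1-KO-labelled libraries and Lum at 0. Immune cell markers summed to between 268 and 269 CPM and between 315 and 329 CPM, nearly all of it Cd68 and Laptm5, while Ptprc had 1 read in all, Csf1r had 2 and 3, and Lyz2 was at 0. The part of these markers in the changes above was not tested.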

How the data were processed

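The deposited values are whole-number counts of reads for each gene symbol, in a separate table for each of 3 control and 3 Rif1-KO libraries. Per the labels' protocols, mRNA libraries were prepared from 200 ng of RNA. STAR, featureCounts 1.6.2 and the mm9 build are named in the submitters' processing notes. The choice of annotation, strand setting and multiple mapping is not given in the sources used here.

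Testing was done mainly with edgeR 4.0.16 (R 4.3.3), quasi-likelihood, on all 6 libraries, with TMM scaling, filterByExpr (at least 10 reads in a library of median size, in 3 libraries), group as the only term, and Benjamini-Hochberg adjustment over 14250 genes. CPM values use the TMM-scaled library sizes of the tested genes. Errors of CPM are SD over 3 libraries. The script was tested on simulated data. Alternatives, 15 in all, were DESeq2 1.42.0, limma-voom (limma 3.58.1), other scalings and filters, a replicate block, an offset for GC content and length (found for 97.8% of tested genes), and leaving out each library. Exon lengths, overlaps and shared 50-base stretches come from GENCODE vM21 (GRCm38), used without coordinates. Symbols of the further lists were matched also through older names in RefSeq.

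The rule names all 33 members and nothing else. The further pathway lists were added for this report. From each, up to 3 genes with the smallest adjusted p under 0.05 were named, or the 2 with the highest mean CPM where none passed. Members and lists were chosen with earlier results of these data known.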

Additional observations from a re-analysis of the deposited data

How the results depend on the processing

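The number of members that fell was 5, 4 with DESeq2, and from 4 to 6 with 1 library left out. The number that rose was 1 (Stat2), but 0 with DESeq2, 2 with library totals only, 2 with no filter on low counts, 2 with an offset for GC content and length, 2 with a replicate block, and from 0 to 2 with 1 library left out. The cause was not tested. The log2 ratio of the summed induced genes went from −0.02 to 0.10 with Adar counted among the sensors, by construction, and that of the transcription factors ran from −0.002 to 0.05 with 1 library left out. Tmem173, which did not pass, ran from −0.39 to 0.0359 over the alternatives, the highest being without control replicate 3, where it reversed. The other tested members kept their direction under all alternatives in which they had a value. Over the further pathway lists, 26 genes rose, from 21 to 30 over the alternatives, and 17 fell, from 15 to 20. The samples share only a replicate number: correlations of same-numbered deviations were 0.0793, −0.0646 and 0.0461. With the replicate block, 5 members fell, and Xaf1 joined Stat2 among those that rose (log2 fold change 0.13, adjusted p = 0.0495, range 0.0312 to 0.209). Among the scalings, library totals shifted the median over all tested genes most, by 0.0163 on the log2 scale. For the members under the filter, with at most 17 reads in a library, depth limits what could be detected.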

Other observations

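Some induced genes outside the members were read more often in the Rif1-KO-labelled libraries from low control levels. They were chosen after their values were seen. Irgm1, a GTPase induced by interferon gamma, had 8 reads in control and 43 in the Rif1-KO-labelled libraries (0.298 and 1.42 CPM), and Irf5, a transcription factor of the IRF family, had 18 and 61 (0.680 and 2.00 CPM). Both passed the filter on low counts only through the Rif1-KO-labelled libraries, so their calls are no support for a rise. Herc6, a ligase of the ISG15 system, had 31 and 75 reads. Trim30a had 4 and 21 reads. Slfn2 had none in control and 14 in the Rif1-KO-labelled libraries. Against a floor of 3 reads over the control group that is 4.11-fold, with no allowance for counting error in the 14. Irf2, a factor that opposes IRF1 at shared sites, had 44 and 112 reads (log2 fold change 1.16 ± 0.24, adjusted p = 0.000525 by edgeR), while Irf1 itself fell.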
